A study of Mus musculus with 2 samples.

Results

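Krt7, Krt8, Krt18 and Krt19 are the keratins of simple epithelia, and they were taken by symbol as 4 of the 19394 genes measured in cultured mouse renal progenitors. Keratins are intermediate filament proteins, and each filament is built from obligate pairs of 1 type II chain and 1 type I chain. Krt7 and Krt8 are type II, and Krt18 and Krt19 are type I. Krt8 and Krt18 are the usual partners in single-layered epithelia such as kidney tubule, liver and gut. Krt7 and Krt19 are common in ducts and collecting ducts, and Krt19 can pair with Krt8. A chain without a partner is generally unstable, so the balance of the types is commonly examined together with their levels.

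The data are 1 single-cell library of vehicle-treated cells and 1 library of cells given panobinostat, an inhibitor of histone deacetylases, and the study asked how this drug acts on renal progenitors. Both groups carried Pax2.rtTA;TetO.Cre with the R26.mT/mG reporter on a C57Bl/6 background, and the mice were 9 weeks old, with n = 2 mice in the labels. The rtTA is driven by the Pax2 promoter, so GFP marks cells that have had Pax2 promoter activity and their descendants. Glomeruli were grown out for 5 days, cells with GFP were taken by sorting and starved for 16 h, and serum with DMSO or with 0.2 µM panobinostat followed for 48 h. With 1 library per treatment there was no test between treatments. All intervals are 95% intervals and cover counting error only, and treatment and library cannot be told apart.

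The vehicle library held 2854 cells with a median of 27924 UMIs (unique molecular identifiers, 1 per captured transcript), and the panobinostat library held 2281 cells with a median of 42394. The libraries shared 0 cell barcodes. Of the markers of the labelled parietal epithelial and progenitor identity, Pax2 was at 40.4 CPM (counts scaled to a library total of 1000000 UMIs) with vehicle and at 24.9 with panobinostat, and Pax8 was at 120 CPM in both. All 6 genes of that list reached 10 CPM in a library, with a summed level of 583 and 431 CPM. The lists for other cell types had low sums in both libraries and higher ones with panobinostat. The endothelial sum was 20.6 and 70.5 CPM, of which Egfl7 gave 11.5 and 67.3, while Pecam1 stood at 0.749 and 0.442 CPM. At a floor of 1 CPM, 2 of 3 endothelial genes were higher and 1 was lower, against 17.9% and 11.0% of all genes. The endothelial sum was uneven over vehicle cells. With clusters at resolution 1.0 it was 145.5 CPM in 1 vehicle cluster of 198 cells. In the other vehicle clusters of at least 50 cells it was between 7.50 and 17.3 CPM. The leukocyte sum over 3 genes was 4.73 and 67.7 CPM, of which Cd68 gave 4.11 and 65.5. The podocyte sum was 12.8 and 24.4 CPM, with Wt1 at 0 with vehicle. The tubule sum was 1.5 and 13.6 CPM with Umod at 0 with vehicle, the urothelial or stratified sum was 1.53 and 10.1 CPM with Upk3a at 0 with vehicle, and the mesangial or fibroblast sum was 1.17 and 4.94 CPM. The part of these genes in the keratin values was not tested.

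Krt8 and Krt18 are neighbours that are transcribed away from each other. On GRCm38, Krt8 lies on chromosome 15 at 101996698 to 102004482 on the minus strand, and Krt18 at 102028180 to 102032027 on the plus strand, with 23.7 kb between their 5′ ends. Krt7 lies on the same chromosome, at 101411043 to 101430313 on the plus strand. Krt19 lies on chromosome 11, at 100140810 to 100148665 on the minus strand, in the type I keratin cluster. Since the members differ in how far their levels moved, the start regions of 3 of them are shown, from RefSeq on GRCm38.p6, at chr15:101412153-101412432 on the plus strand for Krt7, chr15:102004313-102004592 on the minus strand for Krt8 and chr15:102027966-102028245 on the plus strand for Krt18. Each window runs from 250 bases before the RefSeq start to 30 bases after it, and capitals mark matches to 3 of the motifs searched on both strands, which are the GC box, the E-box of the kind bound by Zeb and Snail repressors, and the TATA box.
Krt7: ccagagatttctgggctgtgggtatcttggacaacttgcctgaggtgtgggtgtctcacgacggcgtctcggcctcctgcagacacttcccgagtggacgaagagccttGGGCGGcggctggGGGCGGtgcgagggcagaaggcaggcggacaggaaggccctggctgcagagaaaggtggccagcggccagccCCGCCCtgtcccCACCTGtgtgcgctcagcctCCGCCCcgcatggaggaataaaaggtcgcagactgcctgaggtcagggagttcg
Krt8: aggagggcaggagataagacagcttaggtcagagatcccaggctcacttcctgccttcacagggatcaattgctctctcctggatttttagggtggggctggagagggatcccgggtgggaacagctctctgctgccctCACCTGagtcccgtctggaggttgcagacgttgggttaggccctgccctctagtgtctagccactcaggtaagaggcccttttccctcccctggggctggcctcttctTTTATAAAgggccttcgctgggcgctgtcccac
Krt18: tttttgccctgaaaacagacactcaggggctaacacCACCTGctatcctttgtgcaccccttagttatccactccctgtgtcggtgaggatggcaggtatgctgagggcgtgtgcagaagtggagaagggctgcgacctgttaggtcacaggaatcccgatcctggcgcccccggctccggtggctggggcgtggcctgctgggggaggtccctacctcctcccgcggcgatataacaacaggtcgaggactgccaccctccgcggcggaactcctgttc
The gene positions above are from GENCODE and the windows from RefSeq, and these annotations differ in where each gene starts. The whole Krt7 window and the E-box of the Krt8 window lie inside the GENCODE genes. The E-box CACCTG occurred once in each window. Its first base was 44 bases before the RefSeq start in Krt7, 111 bases before it in Krt8 and 214 bases before it in Krt18. It is found in 19.1% of 32851 such windows over all promoters. The GC box GGGCGG was matched 4 times in Krt7, at 141, 128, 56 and 24 bases before the start, and not in the windows of Krt8 and Krt18, and 34.7% of all windows hold it. The TATA box TATAAA was matched on the plus strand of the Krt8 window, with its first base 1 base before the annotated start. It overlaps a match on the other strand there, and 13.1% of all windows hold it. This match straddles the annotated Krt8 start, which may not be the true one, and the Krt8 positions given here are relative to it. The motif CCAAT, in 36.1% of all windows, had no match in the 3 shown, nor did the AP-1 site TGANTCA, in 7.46% of all. The GC content of the windows was 65.7% for Krt7, 58.6% for Krt8 and 61.4% for Krt18, against a median of 52.5% over all windows. These matches describe letters only, and no binding was measured.

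All 4 keratins were abundant. Levels are in CPM of the UMIs of a whole library, and since a transcript is counted once near its 3′ end they are not divided by gene length. In vehicle cells Krt8 was the highest of the 4, at 4586.75 CPM (interval 4572.82 to 4600.7), and ranked 18 among all genes. Krt18 stood at 3300.79 CPM (3288.98 to 3312.63) and ranked 26, Krt7 at 1765.93 CPM (1757.3 to 1774.6) and Krt19 at 818.699 CPM (812.823 to 824.607). With panobinostat the order of the first pair was exchanged, with Krt18 at 2295.12 CPM (2285.93 to 2304.34) above Krt8 at 1710.05 CPM (1702.12 to 1718.01). Krt7 followed at 1146.53 CPM (1140.04 to 1153.05) and Krt19 at 780.275 CPM (774.92 to 785.657). No neighbouring levels in either order had overlapping intervals. The smallest step with vehicle was 1.39-fold, from Krt8 to Krt18, and the smallest with panobinostat was 1.34-fold, from Krt18 to Krt8.

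Krt8 was 2.68-fold lower in the panobinostat library (log2 ratio -1.42, interval -1.43 to -1.42). It was the member that passed the rule for a lower gene, which asks for a ratio of at least 2-fold and at least 10 CPM in 1 library. By that rule 11.0% of the 8872 genes past the floor were lower and 9.85% were higher, and the median gene stood at -0.07. Krt7 was 1.54-fold lower (log2 ratio -0.62, interval -0.63 to -0.61) and Krt18 1.44-fold lower (-0.52, -0.53 to -0.52). Krt19 was nearly level between the libraries, at a log2 ratio of -0.07 (-0.08 to -0.05), close to the median of all genes. The log2 ratio of Krt8 was below that of its partner Krt18 by 0.90 (interval of the difference -0.91 to -0.89), and below that of the other type II member, Krt7, by 0.80 (0.79 to 0.81). Krt7 and Krt18 differed by only -0.10 in log2 ratio (-0.11 to -0.09). Summed, the 4 genes made up 1.05% of all UMIs with vehicle and 0.593% with panobinostat, a level 1.77-fold lower.

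Because the panobinostat cells held more UMIs each, the scale matters for these genes. Per cell and without scaling by library total, Krt8 gave 145.9 UMIs with vehicle and 78.1 with panobinostat, a log2 ratio of -0.90 that no longer reaches 2-fold. On that scale Krt18 gave 105.0 and 104.8 UMIs per cell, Krt7 56.2 and 52.4, and Krt19 26.0 and 35.6, while the median of all genes stood at a log2 ratio of 0.45. The largest difference per cell was again that of Krt8, and relative to the median gene Krt7 and Krt18 were lower as well. Fewer transcripts of a gene and more transcripts of all others cannot be told apart from CPM alone.

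The shift in Krt8 ran through nearly the whole population of cells. In vehicle cells the Krt8 level had a 5th percentile of 1089 CPM, a median of 3879 and a 95th percentile of 10408, and in panobinostat cells these were 345, 1510 and 3730 CPM. The ranges overlap, and 95.6% of panobinostat cells lay below the vehicle median. The log2 ratio of the 2 distributions was -1.66 at the 5th percentile, -1.36 at the median and -1.48 at the 95th, so the shift was of like size along the whole range. Krt7 differed in this, with a log2 ratio of -2.12 at the 5th percentile (221 and 50.8 CPM), -0.77 at the median (1724 and 1012 CPM) and -0.22 at the 95th percentile (3279 and 2806 CPM). Its high cells were thus nearly level between libraries, and its low cells were much lower. For Krt18 the medians were 2862 and 1650 CPM, with 72.95% of panobinostat cells below the vehicle median, and for Krt19 they were 700 and 711 CPM, with 49.1% below. The spread between cells was wider with panobinostat for Krt7 (a coefficient of variation of 73.4% against 51.5%) and Krt18 (89.8% against 67.0%), slightly wider for Krt8 (71.0% against 64.7%), and narrower for Krt19 (70.9% against 77.4%).

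**Figure D1:**
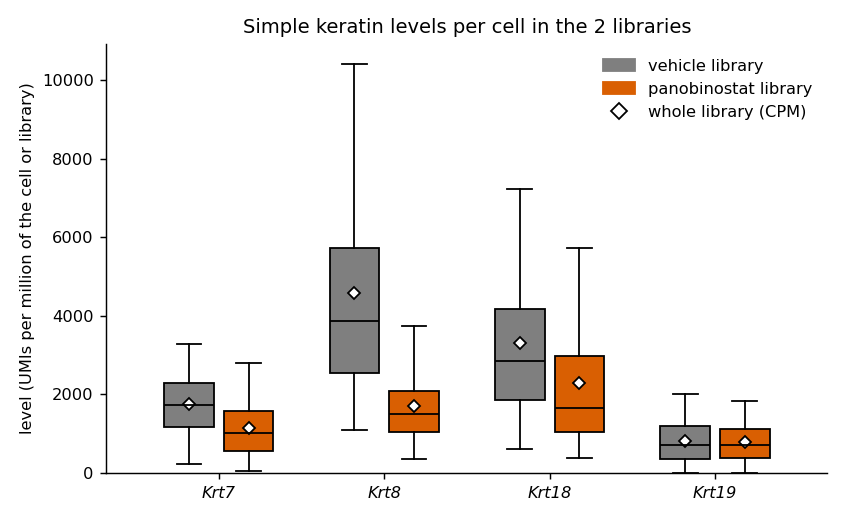
Level of each keratin in single cells (CPM, linear axis from 0) in the vehicle and panobinostat libraries; boxes span the quartiles with the median, whiskers run from the 5th to the 95th percentile, and diamonds mark the CPM of the whole library. The Krt8 box moves from a median of 3879 to 1510 CPM, while the Krt19 boxes lie at the same height.

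Krt8 and Krt18 were seen in nearly every cell. Krt8 had no UMI in 3 of the vehicle cells and 22 of the panobinostat cells, and Krt18 in 8 and 5. After thinning each cell to 18663 UMIs, 98.4% of vehicle and 95.7% of panobinostat cells had a Krt7 UMI (exact binomial intervals 97.8 to 98.9 and 94.8 to 96.5), and for Krt19 the shares were 94.3% and 93.4%. Before thinning the Krt7 shares were 98.6% and 96.9% and the Krt19 shares 94.3% and 94.3%. No cell was without a UMI of at least 1 of the 4 genes. No cluster of cells lacked keratins, so the share that free RNA in droplets gives could not be measured from keratin-negative cells here, and low values of single cells include it.

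The ratio of type II to type I transcripts was lower in the panobinostat library. Krt8 stood at 1.39 UMIs per Krt18 UMI with vehicle (exact interval 1.38 to 1.40) and 0.745 with panobinostat (0.741 to 0.750). Krt8 exceeded Krt18 in 75.5% of vehicle cells and 36.5% of panobinostat cells. Krt7 stood at 2.16 UMIs per Krt19 UMI with vehicle and 1.47 with panobinostat, so the second pair kept an excess of type II. Over all 4 genes the type II to type I ratio was 1.54 (1.536 to 1.548) and 0.929 (0.924 to 0.933), and type II was the higher in 92.6% and 46.7% of cells. As a median over cells this ratio was 1.51 with vehicle and 0.980, nearly even, with panobinostat. With all listed keratin genes included, 14 of type II and 20 of type I, the ratio was 1.42 with vehicle and 0.831 with panobinostat. These are ratios of transcripts, and protein was not measured.

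Within each library, cells with much Krt8 also had much Krt18. Over 2401 vehicle and 2221 panobinostat cells thinned to 1 depth, Pearson's r between the pair on log2(UMIs + 1) was 0.75 and 0.71, and Spearman's rho was 0.71 and 0.63. These correlations describe cells that share a library, and no p is attached to them. Krt8 with Krt18 was the closest of the 6 pairs in both libraries. Krt7 with Krt8, which are both type II, followed at r = 0.65 with vehicle and 0.57 with panobinostat, and Krt7 with Krt18 stood at 0.61 and 0.51. Krt8 with Krt19 had r = 0.53 and 0.42, and Krt7 with Krt19 had 0.49 and 0.36. Krt18 with Krt19, which are both type I, had the weakest relation, at 0.32 with vehicle and 0.15 with panobinostat, where rho was 0.04. All 6 values of r on this scale, and of rho, were lower with panobinostat. Thinned panobinostat cells also held fewer UMIs of Krt8, Krt18 and Krt7, with medians of 28, 31 and 19 against 74, 54 and 32 with vehicle. For Krt19 the median was 13 in both. The part of these lower counts in the lower r and rho was not tested. Without the log, r for Krt8 with Krt18 was slightly the higher with panobinostat, at 0.722 against 0.714 with vehicle. Both Krt8 and Krt18 were seen in 2388 of the thinned vehicle cells and 2190 of the thinned panobinostat cells, and Krt8 alone in 9 and 6, Krt18 alone in 3 and 22, and neither in 1 and 3. A single vehicle cell stood apart from the rest, with 395 UMIs of Krt8 and 0 of Krt18 after thinning.

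Although the pair moved together from cell to cell, its proportions were not fixed. Among thinned cells with at least 10 UMIs of the pair, Krt8 made up a median of 57.2% of the pair with vehicle (quartiles 50 and 65) and 44.7% with panobinostat (35.8 and 55.6). The standard deviation between cells was 11.2 points with vehicle and 14.0 points with panobinostat, while counting alone would give 4.94 and 6.93 points. Krt7 as a share of Krt7 and Krt19 varied more, with standard deviations of 16.2 and 21.8 points against 7.32 and 8.76 from counting.

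**Figure D2:**
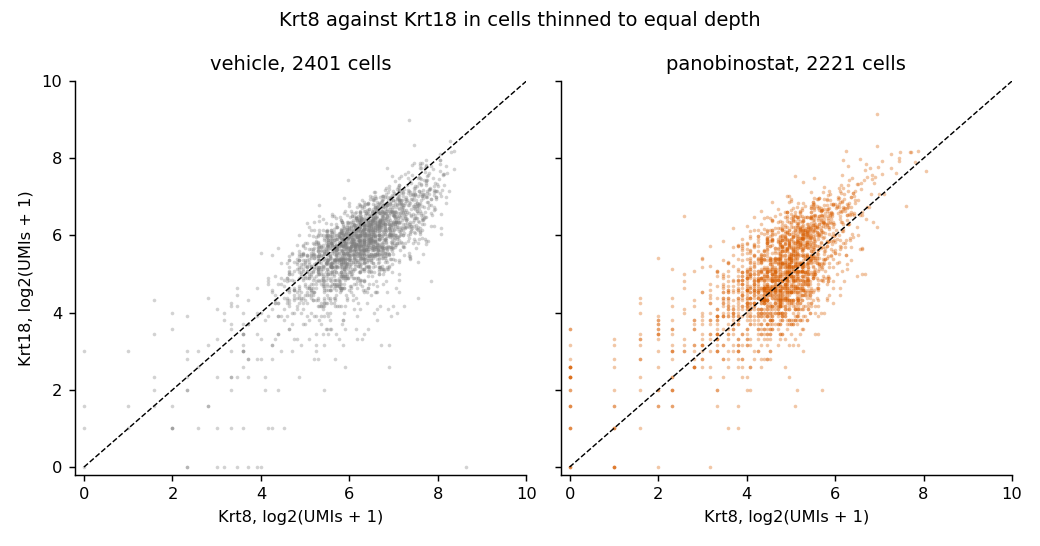
Krt8 against Krt18 in single cells thinned to 18663 UMIs, on log2(UMIs + 1) axes, for the vehicle library (r = 0.75) and the panobinostat library (r = 0.71); 1 point is 1 cell and the dashed line marks equal UMIs. The vehicle cells lie mostly on the Krt8 side of the line (median share of Krt8 in the pair 57.2%) and the panobinostat cells are lower in Krt8 and centred on the other side (44.7%).

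By CPM, the vehicle cells scored as cycling had less keratin than those scored G1. Phases were scored from S and G2/M gene lists. Over all cells, 36 of 42 and 48 of 53 of these genes past the floor were lower with panobinostat and 0 higher. Among all genes past the floor 11.0% were lower and 9.85% higher. Of the 2281 panobinostat cells, 2277 were scored G1. In vehicle cells Krt8 stood at 5605 CPM in 1016 cells scored G1, 4263 CPM in 768 cells scored S and 3930 CPM in 1070 cells scored G2/M. Krt18 followed the same order at 3964, 3086 and 2875 CPM, and Krt19 at 985, 777 and 704 CPM. Krt7 spanned the narrowest range, at 1865, 1791 and 1668 CPM. The vehicle cells differed in depth by phase, with a median of 26160 UMIs in G1, 24939 in S and 31624 in G2/M. This order by CPM need not hold for UMIs per cell, which were not compared between phases. Between cells scored G1 in each library the differences were larger than over all cells. The log2 ratio was -1.72 for Krt8, -0.79 for Krt18, -0.70 for Krt7 and -0.34 for Krt19, with 7.11% of the genes past the floor in G1 cells at least 2-fold lower and 8.97% higher. The Krt8 to Krt18 ratio in G1 cells was 1.41 and 0.744, close to the values over all cells.

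Clusters of cells, made without any keratin gene, differed in keratin level and in the balance of the pair. They are given by number, since they were not matched to cell types. Each was nearly all of 1 library except cluster 10, which held 65 panobinostat and 10 vehicle cells. Values are for the cells of 1 library in a cluster where these number at least 50. The vehicle cells of cluster 2 (732 cells) and cluster 3 (698 cells) had 1.70 and 1.66 UMIs of Krt8 per UMI of Krt18, whereas in cluster 5 (489 cells) and cluster 6 (435 cells) the pair was nearly even, at 1.00 and 1.06. Cluster 5 had Krt8 at 3689 and Krt18 at 3676 CPM, and cluster 6 had 5034 and 4731 CPM. Cluster 8 (398 cells) was the lowest of the vehicle clusters for all 4 genes, with Krt8 at 2703, Krt18 at 2118, Krt7 at 833 and Krt19 at 293 CPM. Cluster 9 (91 vehicle cells, with a median of 14459 UMIs) was the highest for Krt8, at 7624 CPM.

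The panobinostat clusters also differed from each other, mainly in Krt18 and Krt7. Cluster 1 (1149 cells) had Krt8 and Krt18 nearly even at 1643 and 1567 CPM. Cluster 4 (657 cells) had Krt8 at 2167 but Krt18 at 3910 CPM, a ratio of 0.554, with Krt7 at 1764 CPM, the level of the vehicle library. Cluster 7 (404 cells) had the lowest sum of the 4 keratins, 3963 CPM against 5201 in cluster 1 and 8506 in cluster 4. Cluster 10 (65 cells) had a ratio of 0.531 and the lowest Krt7, 305 CPM. Krt8 was between 1146 and 2167 CPM in these 4 panobinostat clusters, below the 2703 CPM of the lowest vehicle cluster, while the ranges of Krt18, Krt7 and Krt19 overlapped between libraries. Within clusters r between Krt8 and Krt18 ran from 0.65 in cluster 1 to 0.81 in cluster 10 with panobinostat, and from 0.71 in cluster 3 to 0.84 in cluster 6 with vehicle. The 6 panobinostat cells in cluster 9 had a median Krt8 level of 3847 CPM and ranged from 1200 to 14054 CPM.

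**Figure D3:**
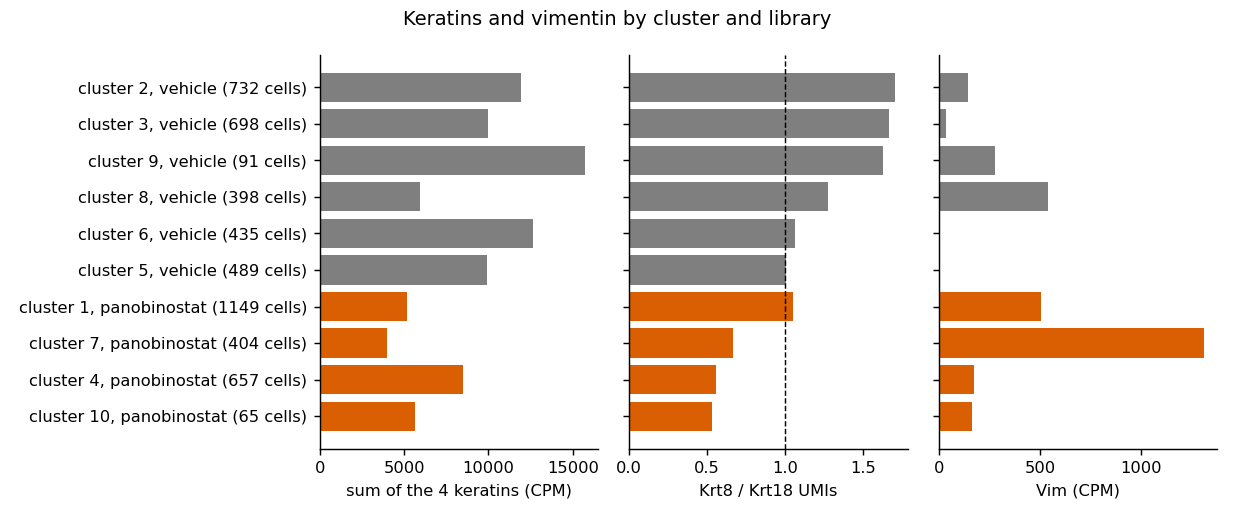
Bars give, for each cluster of at least 50 cells of a library, the summed CPM of the 4 keratins, the UMIs of Krt8 per UMI of Krt18 (dashed line at 1) and the CPM of Vim, with vehicle in grey and panobinostat in orange. Vehicle clusters have Krt8 to Krt18 ratios between 1.00 and 1.70 and panobinostat clusters between 0.531 and 1.05, and the summed keratin is lowest in cluster 7, where Vim is at 1310 CPM.

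Genes were ranked by their correlation with Krt8 over thinned cells of each library, among 3201 genes with vehicle and 3076 with panobinostat that reached 50 CPM. The other 3 keratins were the leading genes with vehicle, at r of 0.75 for Krt18, 0.65 for Krt7 and 0.53 for Krt19, where 95% of the genes lay between -0.17 and 0.21. Tpm2 (tropomyosin, 0.49), Sfn (the 14-3-3 protein sigma, which binds keratins, 0.49), Dstn (an actin-depolymerising factor, 0.48), Mal (a membrane traffic protein of the apical surface, 0.44) and Ppbp (a chemokine, 0.42) came next. With panobinostat the order was Krt18 (0.71), Krt7 (0.57), Cldn7 (a tight junction claudin, 0.50), Sfn (0.46), Krt19 (0.42), Dstn (0.42), Mal (0.39) and Wfdc2 (0.38). The libraries shared 6 of these 8 genes. Tpm2 and Ppbp were themselves lower with panobinostat, from 463 to 159.6 CPM and from 325 to 80.9 CPM.

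The other members had partly different companions. For Krt7 the leading genes were Krt8, Mal (0.64) and Krt18 with vehicle, and Ly6a (a membrane antigen, 0.60), Krt8 and Mal (0.56) with panobinostat. For Krt18 the third gene after Krt8 and Krt7 was Sfn (0.47) with vehicle and Clu (clusterin, a secreted chaperone, 0.49) with panobinostat. For Krt19 it was Anxa1 (annexin, 0.45) after Krt8 and Krt7 with vehicle, and with panobinostat Ly6a (0.42) and Anxa1 (0.38) after Krt8.

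**Figure D4:**
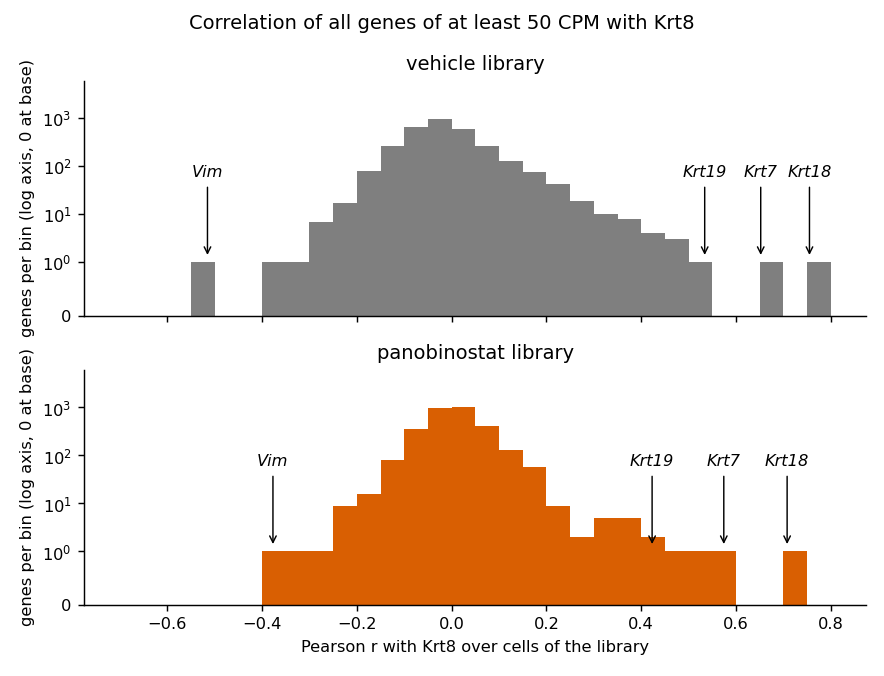
Number of genes (log axis with 0 at its base) by Pearson's r with Krt8 over thinned cells, for the vehicle library above and the panobinostat library below, with arrows at Krt18, Krt7, Krt19 and Vim. The keratins lie in the upper tail and Vim at the lower end, at -0.52 with vehicle and -0.38 with panobinostat.

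At the opposite end stood Vim, the intermediate filament protein of mesenchymal and many cultured cells. It had the lowest r with Krt8 of all ranked genes in both libraries, -0.52 and -0.38, and the lowest r with Krt7 (-0.63 and -0.37) and Krt18 (-0.53 and -0.40) as well. With Krt19 it was the lowest with vehicle (-0.38) but not with panobinostat (-0.14, rank 3053). The next lowest genes for Krt8 were Gclc (-0.35), Ptma (-0.30) and Gclm (-0.29) with vehicle, of which Gclc and Gclm form the enzyme that starts glutathione synthesis. With panobinostat they were Sparc (-0.32), Plod2 (-0.27) and Col4a1 (-0.24), which are genes of the extracellular matrix or of collagen processing.

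Vim itself stood at 122.4 CPM with vehicle and at 541.0 in the other library, which is 4.42-fold more (log2 ratio 2.14, counting interval 2.12 to 2.17). After thinning, a Vim UMI was seen in 16.3% of the vehicle cells (exact interval 14.8 to 17.8) and in 87.8% of those given panobinostat (86.4 to 89.2). Relative to the summed level of the 4 keratins, Vim was at 1.17% with vehicle and 9.12% with panobinostat, so the keratins stayed far more abundant. In the vehicle library the 131 thinned cells with 10 or more Vim UMIs had median values of 17 UMIs of Krt8, 10 of Krt18 and 2 each of Krt7 and Krt19. The 2010 cells without Vim had medians of 78, 57, 34 and 14. In the panobinostat library the same contrast was flatter for Krt8, Krt18 and Krt7 and was not seen for Krt19. The medians were 23 for Krt8, 24 for Krt18, 13 for Krt7 and 12 for Krt19 in 722 Vim-rich cells. They were 32, 51, 26 and 11 in 270 cells without Vim. Krt8 was thus low also in panobinostat cells without a Vim UMI, at a median of 32 UMIs against 78 in such vehicle cells, whereas Krt18 was at 51 against 57. Among vehicle clusters of at least 50 cells, Vim was highest in cluster 8 (541 CPM), which had the lowest keratin sum, 5948 CPM. It was next highest in cluster 9 (280 CPM), which had the highest sum, 15725 CPM, and it stood at 143 and 36.9 CPM in clusters 2 and 3 and at 4.27 and 4.86 CPM in clusters 5 and 6. Among panobinostat clusters it was highest in cluster 7 (1310 CPM), where the keratin sum was lowest, and at 506 CPM in cluster 1 and 172 CPM in cluster 4. Cluster 10 had Vim at 166 CPM and a keratin sum of 5657 CPM, so the clusters did not follow 1 order.

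The other keratins were far below these 4. Of 14 type II keratin genes of the matrix, 3 passed the floor, and Krt80 was the only other one, at 15.6 CPM with vehicle and 4.66 with panobinostat (log2 ratio -1.74). Krt80 passed the floor through the vehicle library alone, and its call ends at a floor of 50 CPM. With Krt8 it made 2 lower and 0 higher, and a median of -1.42 over the 3 genes. Of all genes past the floor, 11.0% were lower and 9.85% higher. Of 20 type I genes 5 passed, with 1 higher, 1 lower and a median of -0.07. Krt17, a keratin of stressed and basal epithelia, was at 112.6 and 55.9 CPM (-1.01), a call that ends when ratios are centred on the median gene (-0.94). Krt25, a hair root sheath keratin, was at 5.94 and 12.4 CPM (1.06), and this call ends with TMM factors (0.94) and DESeq2 size factors (0.93). Krt25 passed the floor through the panobinostat library alone. Krt20, a keratin of gut and urothelial surface cells, was at 226 and 301 CPM (0.42). Below the floor, Krt5, the basal keratin of stratified epithelia, stood at 0.342 and 5.77 CPM, and Krt16 at 2.94 and 0.25 CPM.

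Of 16 other intermediate filament genes, 5 passed the floor, with Vim higher, Lmnb1 lower and a median of -0.68. Among all genes past that floor 11.0% were lower and 9.85% higher. Lmnb1, a nuclear lamin, was at 97.3 and 23.1 CPM (log2 ratio -2.07), but its log2 ratio between cells scored G1 was only -0.38, so this call ended there. Lmna was at 413 and 258 CPM (-0.68, and -0.58 in G1 cells). Lmnb2 had a log2 ratio of -0.73, which turned to 0.29 in G1 cells, and Nes (nestin) was at 264 and 210 CPM (-0.33, and -0.022 in G1 cells). With the floor at 1 CPM, 14 of the 16 passed, of which 10 were higher, and these included neurofilament and related genes at low levels, such as Nefm (0.617 and 9.65 CPM), Prph (0.881 and 8.05 CPM) and Nefl (0.088 and 7.55 CPM). At that floor 17.9% of all genes were higher, and genes passing it through 1 library had to be higher there.

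**Figure D5:**
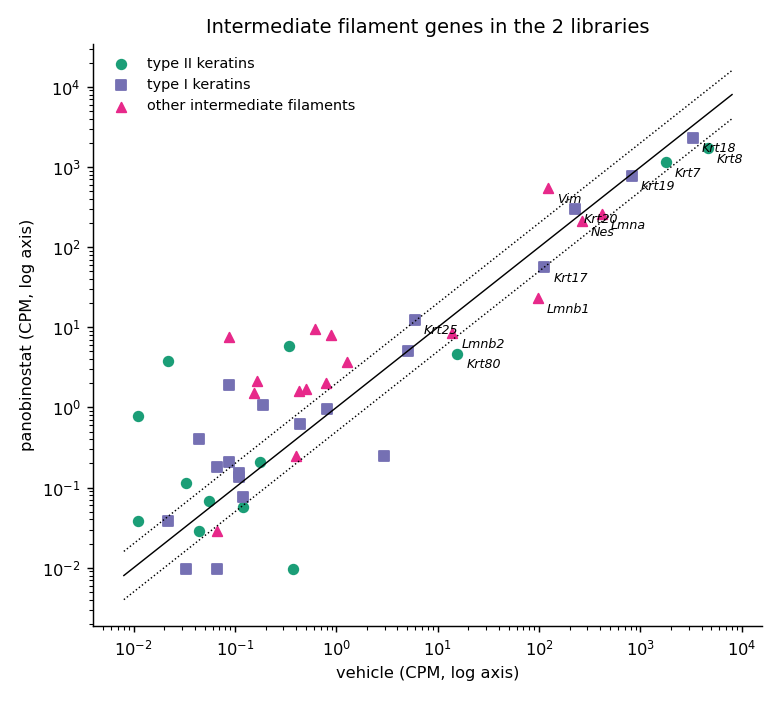
Level of each listed keratin and other intermediate filament gene with vehicle (x axis) and panobinostat (y axis), in CPM on log axes. Genes at 0 in a library are not drawn, and names are given for genes past 10 CPM. The solid line marks equal levels and the dotted lines 2-fold. Krt8, Krt80, Krt17 and Lmnb1 lie beyond the lower dotted line and Vim and Krt25 beyond the upper one, while most unnamed genes have few UMIs.

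Genes whose products anchor or bind keratin filaments were counted by the same rule, by which 11.0% of all genes past the floor were lower and 9.85% higher. Of 17 plakin, desmosome and hemidesmosome genes past the floor, 3 were lower and none higher, and the median was -0.09. The lower ones were Eppk1 (epiplakin, which binds keratin filaments, 33.0 and 8.92 CPM, -1.89), Cd151 (a tetraspanin of hemidesmosomes, 240.2 and 103.8 CPM, -1.21) and Pkp3 (a desmosomal plakophilin, 39.0 and 17.0 CPM, -1.20). Eppk1 passed the floor through the vehicle library alone, and its call and that of Pkp3 end at a floor of 50 CPM. Dsg2, a desmosomal cadherin, had a log2 ratio of -0.61. Of 14 keratin-binding partners past the floor none passed 2-fold, and their median was -0.15. Centred on the median gene, 1 of them was higher (Prkcd, 1.04). The farthest were Prkcd (a kinase that phosphorylates keratin, 0.97), Dnajb6 (a co-chaperone that binds Krt18, 0.84), Fam83h (-0.71) and Ywhae (a 14-3-3 protein, -0.67).

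Regulators and markers of the epithelial state were read against the same shares, 11.0% lower and 9.85% higher. Of 17 epithelial transcription factors past the floor, 1 was lower, Grhl2 (grainyhead-like, 23.8 and 9.07 CPM, log2 ratio -1.39), and 0 were higher, with a median of -0.13. Grhl2 passed the floor through the vehicle library alone. Tfap2b (-0.86), Ehf (-0.81) and Klf5 (0.76) came next. Of 9 genes listed as repressors of epithelial genes 4 passed the floor, with a median of 1.19, and 2 were higher. These were Twist1 (3.02 and 11.2 CPM, 1.90) and Zeb1 (3.23 and 11.0 CPM, 1.77), which passed the floor through the panobinostat library alone. Tcf4 (0.61) and Tgfb1 (-0.28), which is a secreted factor and not a transcriptional repressor, were within 2-fold. Of 24 epithelial membrane and junction genes past the floor, 3 were lower, 0 were higher and the median was -0.44. Among the lower ones were Ap1m2 (an epithelial sorting adaptor, 47.8 and 15.9 CPM, -1.59) and Marveld2 (tricellulin, 19.6 and 6.68 CPM, -1.55). Marveld2 passed the floor through the vehicle library alone. The calls of Grhl2, Twist1, Zeb1, Ap1m2 and Marveld2 all end at a floor of 50 CPM. Crb3, a polarity protein, was just inside 2-fold (96.2 and 48.2 CPM). With TMM or DESeq2 factors 6 genes of this list were lower, where 13.6% and 13.8% of all genes past the floor were lower and 8.57% and 8.49% higher.

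The genes beside Krt8 and Krt18 were mostly at low levels. On the Krt8 side, Krt4 (34 UMIs with vehicle and 1 with panobinostat), Krt79 (16 and 22 UMIs) and Krt78 (5 and 7 UMIs) were all under the floor. On the Krt18 side, Eif4b, a translation initiation factor, was at 152 and 139.7 CPM (log2 ratio -0.12), Spryd3 at 16.1 and 10.6 CPM (-0.61), and Tns2 at 3.55 and 4.50 CPM, under the floor. The annotated genes Gm671 at Krt7 and Gm36026 at Krt8 overlap the members and were not analysed here. Reads of the pseudogene Krt8-ps, on chromosome 7 at 23357125 to 23358069, could not be separated from those of Krt8 by these values.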

How the data were processed

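Cell Ranger 3.0.1 and mm10 are named in the submitters' processing notes. Which annotation was counted is not given in the sources here. The authors deposited raw UMI counts for 19394 genes and 5135 cells, whole numbers with no normalization, from 3′ libraries made on the 10x Chromium instrument per the labels' protocols. Cells were assigned to libraries by the mark at the end of each barcode. Every deposited cell was used. The lowest number of genes in a cell was 1798 and the highest mitochondrial share 9.98%, so cells had been filtered before deposit. No doublet caller was run, and the values without the 5% of cells with the most UMIs are an alternative.

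Counts were summed per library, which gave 90754967 UMIs with vehicle and 104188927 with panobinostat, and scaled to CPM. Single CPM values have exact Poisson intervals, and ratios have exact conditional binomial (Clopper-Pearson) intervals. Differences of log2 ratios have normal-approximation intervals of counting error. A gene was called at 2-fold or more with at least 10 CPM in 1 library. A gene under 10 CPM in 1 library passes that floor only through the other, and a count of 0 was set at 3. For pairs of genes, cells were thinned to 18663 UMIs (10th percentile), which left out 453 vehicle and 60 panobinostat cells. Phases were scored with scanpy 1.11.5, and clusters came from leidenalg 0.10.2 on 30 principal components of 2000 variable genes, keratins left out. The code was tested on simulated counts.

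The members, gene lists and motifs were chosen with earlier results of these data known. Named genes were the 4 members, the 8 highest and 4 lowest by r with Krt8 and the 3 highest for each other member among genes of at least 50 CPM, up to 4 genes of each list with the largest absolute log2 ratio past the floor, other keratins past it, and 3 neighbours on each side of the Krt8 and Krt18 pair. Krt5, Krt16, Nefl, Nefm, Prph, Crb3 and the cell type markers given were named after their values were seen. Some genes that the rule names are not reported here. Gene positions are from GENCODE M21 on GRCm38, and 98.7% of the symbols were found there. Start regions are from RefSeq, for 3 of the 4 members. Alternatives were scaling factors from edgeR 4.0.16 (TMM) and DESeq2 1.42.0, other floors, folds and choices of cells, other measures of correlation, and other cluster settings. The software was R 4.3.3, Python 3.11.15, scipy 1.17.1 and numpy 2.4.6.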

Additional observations from a re-analysis of the deposited data

How the results depend on the processing

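No paired analysis was possible because each treatment has 1 library and the labels carry no replicate numbers, and leaving out a replicate was not possible for the same reason. UMIs per cell and leaving out cluster 9 were 2 settings chosen after seeing the data. No setting tried turned the direction of Krt8. The log2 ratio of Krt7 was -0.74 with TMM factors, -0.75 with DESeq2 size factors, -0.56 centred on the median gene, -0.59 as a mean over cells, -0.60 thinned before summing, -0.70 in G1 cells, -0.60 without the 5% of cells with the most UMIs, -0.65 without the 5% with the most keratin and -0.10 as UMIs per cell. In the same order Krt8 was at -1.54, -1.55, -1.36, -1.39, -1.40, -1.72, -1.40, -1.43 and -0.90, and at -1.41 without cluster 9. Krt18 was at -0.64 with TMM, -0.65 with DESeq2, -0.46 centred, -0.53 thinned, -0.79 in G1 cells, -0.59 without the most keratin and -0.0018 as UMIs per cell. Krt19 was at -0.19, -0.20 and -0.0019 with the first 3 of these scalings, -0.34 in G1 cells, -0.014 without the most keratin and 0.45 as UMIs per cell. At a threshold of 1.5-fold, 2 members were lower in place of 1.

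The Krt8 to Krt18 correlation with vehicle was 0.71 as Spearman's rho, 0.71 without the log, 0.78 unthinned and 0.76 in G1 cells, and with panobinostat 0.63, 0.72 and 0.74 for the first 3. The type II to type I ratio with vehicle was 1.42 over all listed keratins, 1.51 in G1 cells and 1.51 as a median over cells. With panobinostat it was 0.831 over all listed keratins and 0.980 as a median over cells. With clusters made in each library alone, the Krt8 to Krt18 ratio ran from 1.01 to 1.76 in vehicle clusters and from 0.514 to 1.12 in panobinostat clusters, and at resolution 1.0 the highest vehicle value was 1.76. Of 126 other list counts under alternatives, 87 stayed within 1.5 times and 39 moved beyond it. The higher genes were 47.3% of all calls by CPM, 38.6% with TMM, 38.1% with DESeq2 and 52.6% when centred, so lower calls outnumbered higher ones by CPM, TMM and DESeq2 but not when centred. Type I keratins, with 1 higher and 1 lower by CPM, had 0 lower when centred and 0 higher with TMM and DESeq2. With 1 library per treatment, depth is not the limit for these 4 genes, and the spread between cultures is unknown.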
